A study of Mus musculus with 12 samples.

Results

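Atm-knockout mouse embryonic fibroblasts were compared with Atm wild-type fibroblasts 72 h, or 3 days, after both had received 4.32 Gy. Embryonic fibroblasts are connective tissue cells grown out of a dissociated embryo. The comparison takes 6 of the 12 single-colour Agilent whole mouse genome arrays of the series, chosen by their sample titles: 3 irradiated knockout samples (IR-KO) and 3 irradiated wild-type samples (IR-WT). The other 6 arrays hold nonirradiated cells of the same genotypes, 3 knockout (NonIR-KO) and 3 wild-type (NonIR-WT), and are used here to show where the genotype difference after irradiation departs from the one without it. The labels give no mouse strain, no description of the Atm allele, no passage number and no number of embryos behind a culture. Nor do they state whether replicates are separate cultures; a p-value here therefore reflects no more than the scatter among these samples, and that scatter may be technical.

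Atm is the protein kinase that DNA double-strand breaks switch on. It phosphorylates p53, the checkpoint kinase Chk2 and the histone variant H2AX, and so holds the cell cycle while breaks are repaired. Its loss causes ataxia-telangiectasia in people, and fibroblasts without it grow poorly and age early in culture. DNA that leaks into the cytosol of damaged cells can turn on type I interferon genes through the cGAS and STING sensors.

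Expression is given as the log2 signal of a probe relative to the 75th percentile of its array, so a value of 0 is the brightness of that percentile. The percentile itself ran from 379 to 757 across arrays, and the scanner marked 55.3% to 64.5% of probes as well above background. A feature is a named gene, read on its brightest named probe, or an unnamed transcript. Unnamed transcripts were not matched to genes, so some may be further probes of a named gene. A count of features may therefore hold a gene more than once. Of 32665 features, 18438 carried that mark throughout at least 1 of the 4 groups and were tested, 12814 of them with a gene name. The fibroblast markers Col1a1, Col1a2, Thy1 and Pdgfra were all well expressed, at 1.58 to 9.20 on the 6 irradiated arrays.

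Slide, replicate number and sex-linked genes all bear on the comparison. IR-WT replicates 1 and 2 lay on slide 1, IR-KO replicates 2 and 3 on slide 3, and IR-WT replicate 3 with IR-KO replicate 1 on slide 2, so only that pair separates genotype from slide. Replicate 1 of both genotypes stood apart from replicates 2 and 3. Myl1, a myosin light chain of muscle, read 1.08, -3.36 and -4.40 in IR-KO replicates 1, 2 and 3 and 0.46, -5.93 and -6.24 in IR-WT. The shared-slide pair therefore also sets replicate 1 against replicate 3, and its differences mix that contrast with genotype. Across that pair the 20 tested skeletal muscle genes had a median of 1.02, against -0.32 over all features. Xist, the RNA that coats the inactive X chromosome of female cells, read -8.37, -1.82 and -1.04 in IR-KO and -0.61, -7.89 and -7.62 in IR-WT. The Y-linked helicase gene Ddx3y showed the mirror image, at 0.50, -7.78 and -7.84 in IR-KO and -8.42, -0.61 and -0.93 in IR-WT. Sex-linked expression thus differed between the genotypes in every replicate, one way in replicate 1 and the other way in replicates 2 and 3. None of the 38 features called below is known to lie on the X or Y chromosome. All 38 had the same sign in the replicate 1 pair as in the other 2 pairs. That had to be so, because their knockout and wild-type arrays did not overlap, and it does not test the part of sex. Of the 140 features called with the replicate block below, 4 lie on the X chromosome, Vegfd among them, and the part of sex in those was not tested.

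The targeted gene was dim in all 6 samples and dimmer in the 3 knockout samples. On the brighter of its 2 probes Atm read -5.66, -7.50 and -6.48 in IR-KO and -2.87, -4.60 and -4.60 in IR-WT. Every knockout array lay below every wild-type array, and the signal was well above background on 1 of 3 knockout and 3 of 3 wild-type arrays. The difference of -2.52 ± 0.658 (log2, SE, n = 3 and 3) had an adjusted p of 0.225 in limma and was not called. With the replicate number as a block in limma its SE was 0.255 and its adjusted p 0.00287. No label states that same-numbered samples are pairs, and the block, here and below, rests on these data alone. The other probe differed by -1.91 ± 0.630, and on the shared slide the brighter probe differed by -1.07. With normexp background correction and quantile normalization its difference was -0.39 (adjusted p = 0.887), and with slide as a fixed block -1.52 (adjusted p = 0.689). Where the probes lie relative to the disrupted stretch of the gene was not known here.

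Among the 18438 features, 38 (0.206%) passed an adjusted p of 0.05 in limma after Benjamini-Hochberg correction; such features are said to be called, higher or lower, throughout. The knockout was higher for 11 (0.0597%), 9 of them named, and lower for 27 (0.146%), 23 of them named. The genes lower in the knockout included Acadm, an enzyme of fatty acid oxidation, the prostaglandin synthase Ptgds, complement and receptor genes of macrophages, and the macrophage chemokines Ccl3 and Ccl4. The genes higher in the knockout included the antiviral enzyme Oas1a, the cytokine Tslp, the chemokines Ccl5 and Ccl20 and the MHC gene H2-Q8. For all 38 the 3 knockout arrays and the 3 wild-type arrays did not overlap, a separation that 1265 features (6.86%) showed. At an unadjusted p below 0.05 there were 964 features.

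**Figure D1:**
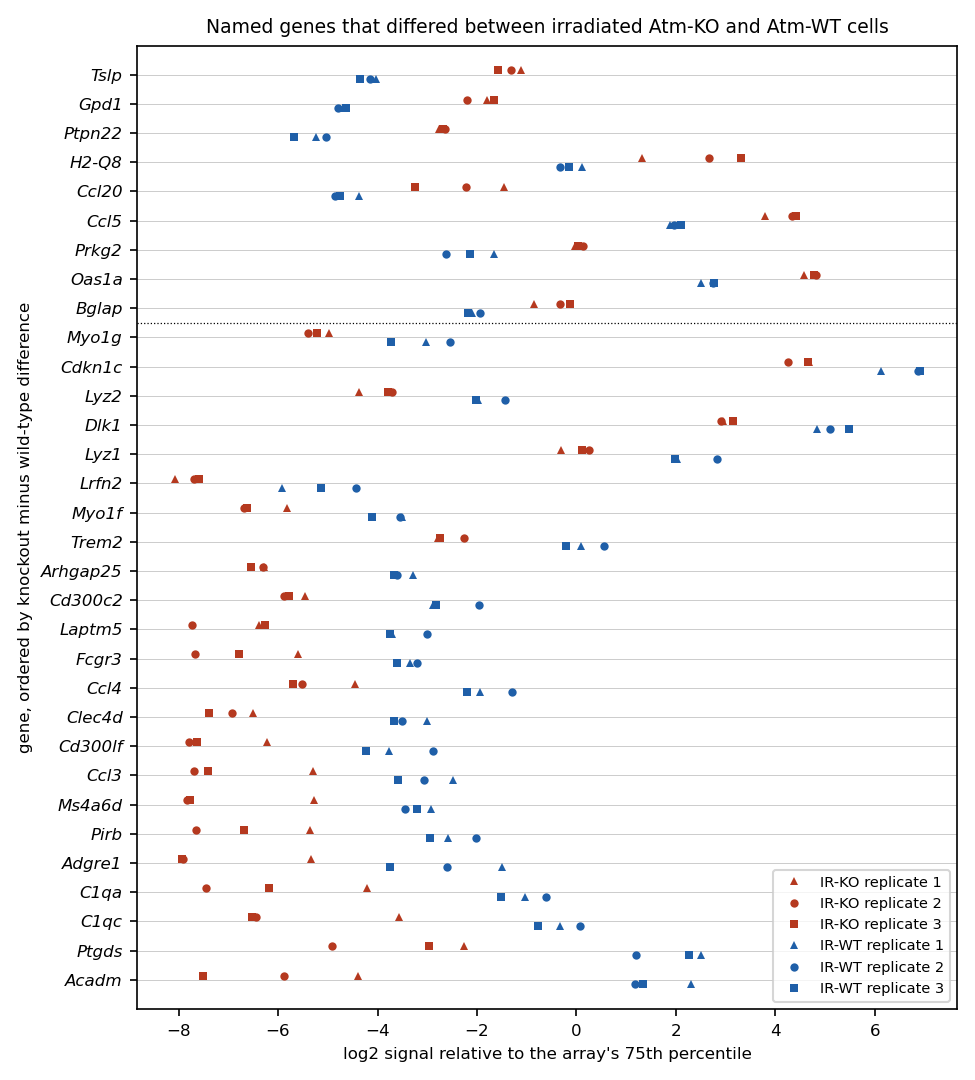
Log2 signal, with 0 at the 75th percentile of each array (horizontal axis), of the 32 named genes called between irradiated Atm-KO (red) and irradiated Atm-WT (blue) cells, 1 marker per array with its shape giving the replicate, ordered by the difference and split by a dotted line into the 9 higher and the 23 lower genes. Red and blue markers do not overlap for any gene, and the gap is widest for Acadm at 5.57.

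The number of calls depended on which arrays entered and on how replicates were handled, while the direction of the 38 did not. With non-overlapping arrays, that direction could not change when arrays were left out. With the replicate number as a block, 140 features (0.759%) were called, 56 higher (0.304%) and 84 lower (0.456%), and these included all 38. Leaving out IR-WT replicate 1, 2 or 3 left 28, 3 or 23 calls, and leaving out IR-KO replicate 1, 2 or 3 left 104, 6 or 5. Only Tslp, Clec4d and Acadm were called in all 6 of these fits. Without the replicate 1 samples of all groups, an alternative chosen after seeing the data, 1044 features were called, 547 higher and 497 lower, again including the 38; in those samples slide, sex-linked expression and genotype cannot be told apart. On the shared slide all 38 had the same sign, which their non-overlapping arrays fixed in advance. With slide as a fixed block only 3 features were called, among them Acadm (adjusted p = 0.0207) and C1qc (adjusted p = 0.0275). Where a call below was lost when 1 irradiated array was left out, the array that raised its adjusted p most is named with that value.

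Most of these features also separated the genotypes without irradiation. All 38 had the same sign in nonirradiated cells, where 159 features (0.862%) were called, 72 higher (0.390%) and 87 lower (0.472%). Whether irradiated and nonirradiated samples of 1 replicate number came from the same cells is not stated in the labels. Xist read -7.24, -1.58 and -1.78 in NonIR-KO and -1.49, -7.44 and -7.27 in NonIR-WT, high and low in the same replicates as after irradiation. Same-numbered arrays of a genotype also shared a slide, so the 2 comparisons may not be independent. The 34 called in both comparisons are 89.5% of the irradiated calls and 21.4% of the nonirradiated calls. The other 4 are Lrfn2, whose arrays overlapped without irradiation (-0.51, adjusted p = 0.994), Ptpn22 (1.93, adjusted p = 0.0890), Ccl20 (1.74, adjusted p = 0.0978) and an unnamed transcript. The median size of the difference over the 38 was 2.79 after irradiation and 3.04 without it, and it was smaller after irradiation for 28. The difference between the 2 genotype differences, tested as an interaction term, was called for 1 feature (0.00542%), Oas1a, with 166 at an unadjusted p below 0.05, and with the replicate block for 5 (0.0271%).

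**Figure D2:**
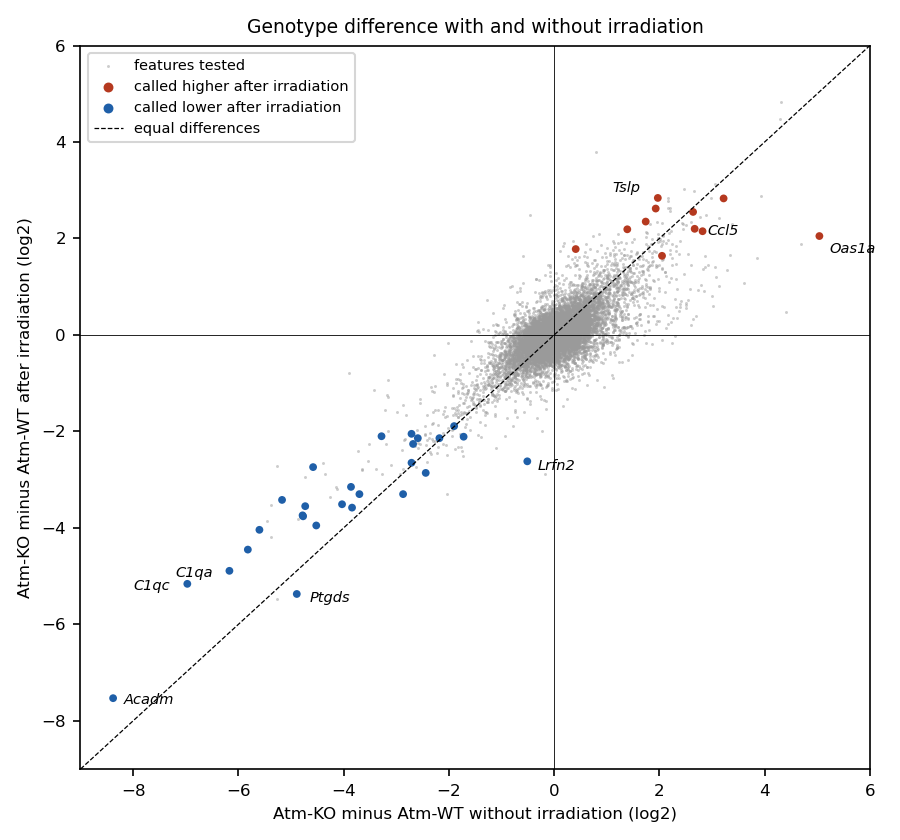
Atm-KO minus Atm-WT difference (log2) of each of 18438 tested features without irradiation (horizontal axis) and after irradiation (vertical axis), with features called after irradiation in red (11 higher) and blue (27 lower) and a dashed line of equal differences. All 38 coloured points lie in the quadrants of equal sign, and Oas1a lies farthest below the line among the higher ones, at 2.05 after irradiation and 5.04 without.

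Genes of macrophages formed the largest group lower in the knockout. Of 19 tested genes on a list of macrophage and blood cell markers, 7 were called lower (0.146% of all features were) and none higher. Their median difference was -2.14, against -0.01 over all features tested. Several members were bright enough to be tested in wild-type cells only and so had to differ, which means that the count and the median describe the list and support nothing further. Of the 10 members above background on all 6 irradiated arrays, 2 were called lower, Lyz1 and Lyz2. With the replicate block 12 were called lower, and without the replicate 1 samples 13. Leaving out IR-WT replicate 1, 2 or 3 left 3, 0 or 4 calls, and leaving out IR-KO replicate 2 or 3 left 1 or 0. The 7 were the complement genes C1qa and C1qc, the macrophage surface receptor Adgre1, the IgG receptor gene Fcgr3, the lysosomal membrane gene Laptm5, and the lysozymes Lyz1 and Lyz2. In whole-culture RNA, fewer macrophages and less macrophage RNA per cell cannot be told apart.

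C1qc encodes a chain of C1q, the recognition molecule of the classical complement pathway, which macrophages secrete. It read -3.57, -6.44 and -6.52 in IR-KO and -0.34, 0.07 and -0.78 in IR-WT, with the knockout well above background on 1 of 3 arrays. Replicate 1 was the highest knockout array and still lay 2.80 below the lowest wild-type array. The difference was -5.16 ± 0.840 (35.8-fold, adjusted p = 0.0293 in limma). C1qa, the gene of the partner chain, differed by -4.89 ± 0.846 (adjusted p = 0.0428). Without IR-KO replicate 2 the adjusted p was 0.207 for C1qc and 0.241 for C1qa. Without irradiation the differences were -6.97 and -6.17. C1qb, the third chain of the complex, read -3.51, -3.29 and -2.73 in IR-KO and -2.45, -1.67 and -1.74 in IR-WT, a difference of -1.22 ± 0.311 (adjusted p = 0.209) that was not called.

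Adgre1 read -5.34, -7.91 and -7.94 in IR-KO and -1.50, -2.61 and -3.74 in IR-WT. The groups did not overlap, and the lowest wild-type array and the highest knockout array were the pair on the shared slide, 1.60 apart. The difference was -4.45 ± 0.752 (adjusted p = 0.0380, and 0.243 without IR-KO replicate 2). A fainter Adgre1 probe was above background on none of the 6 arrays. Fcgr3 read -5.59, -7.66 and -6.78 in IR-KO and -3.34, -3.20 and -3.61 in IR-WT, a 9.82-fold difference (adjusted p = 0.0139, and 0.0965 without IR-WT replicate 2). Laptm5 was above background on no knockout array and on all wild-type arrays, at least 4.89-fold lower in the knockout (adjusted p = 0.134 without IR-WT replicate 2), and its other probe gave a difference of -2.88 ± 0.407.

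The lysozymes digest bacterial cell walls, and Lyz2 is the usual marker of myeloid cells. Lyz2 read -4.38, -3.71 and -3.78 in IR-KO and -1.98, -1.44 and -2.03 in IR-WT, and Lyz1 read -0.31, 0.25 and 0.11 against 2.02, 2.83 and 1.98. The groups did not overlap for either gene, with differences of -2.14 ± 0.273 (adjusted p = 0.0116) and -2.26 ± 0.311 (adjusted p = 0.0137). The 2 genes are near-identical copies, so their probes may read each other's RNA. Both calls were lost without IR-WT replicate 2, at an adjusted p of 0.0775.

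On their named probes, a further 5 genes of the list were called lower with the replicate block alone. Unnamed transcripts of these genes, if any, were not identified. Tyrobp, the signalling adaptor of myeloid receptors, differed by -3.85 ± 0.798 (adjusted p = 0.102, and 0.0302 with the block). Fcer1g, an adaptor of Fc receptors, differed by -2.26 ± 0.416 (0.0581, and 0.00525 with the block), and Csf1r, the receptor for macrophage colony-stimulating factor, by -1.84 ± 0.374 (0.0924, and 0.0462). Cd52 and Cd14 were also called with the block alone. Mpeg1, the macrophage perforin, was close between the groups at -0.79, -1.93 and -1.77 in IR-KO and 0.40, -1.10 and -1.45 in IR-WT, a difference of -0.78 ± 0.497. Without irradiation Mpeg1 differed by -3.89 (adjusted p = 0.00238). The T cell gene Cd3e and the globin gene Hba-a1 differed by -0.35 and 0.11 and were not called. Ptprc (CD45), carried by white blood cells, was above background on no IR-KO and 1 IR-WT array and was too dim to test.

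**Figure D3:**
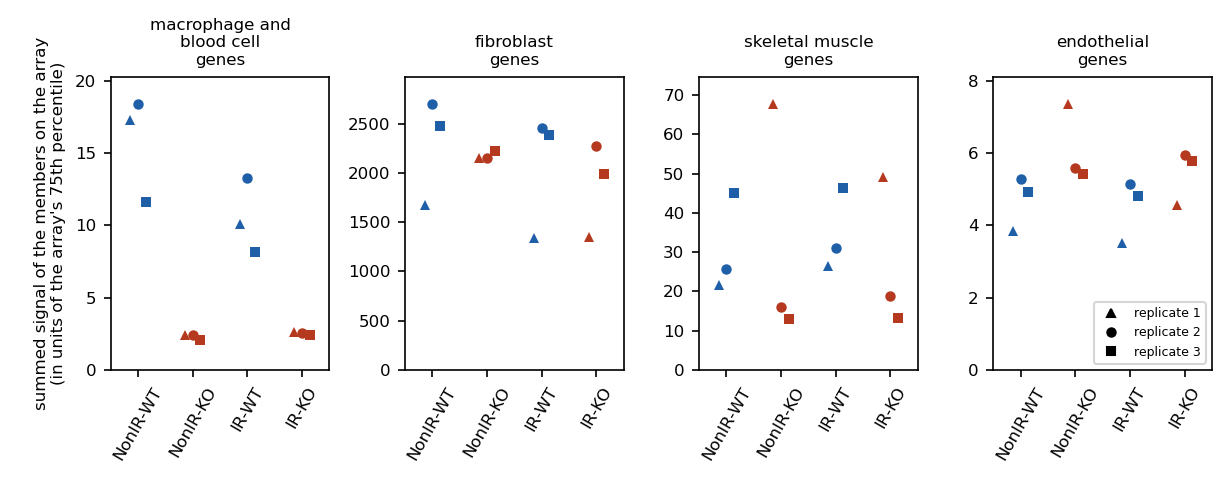
Summed signal of the members of 4 cell type lists that the array carries, on each of the 12 arrays (vertical axes, in units of the array's 75th percentile, each starting at 0), by group and replicate, knockout in red and wild-type in blue. Macrophage signal was 2.39 to 2.59 on the 3 IR-KO arrays and 8.17 to 13.3 on the 3 IR-WT arrays without overlap, fibroblast signal was 1350 to 2270 and 1340 to 2460, and muscle signal was 13.1 to 49.1 and 26.4 to 46.4. The macrophage sum includes the 7 genes called lower, the bright Lyz1 among them.

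The signal of the macrophage list, summed over the 25 members on the array, was 2.59, 2.57 and 2.39 in IR-KO and 10.1, 13.3 and 8.17 in IR-WT. All wild-type arrays therefore carried more of it than any knockout array. The sum gives most weight to bright members, such as Lyz1 at 1.98 to 2.83 (log2) in IR-WT. It also holds the 7 called genes, so it is not a separate result. Of the 25 members, 18, 12 and 13 were well above background on the IR-KO arrays and 20, 19 and 21 on the IR-WT arrays. Fibroblast signal, summed the same way, overlapped at 1350, 2270 and 1990 in IR-KO and 1340, 2460 and 2380 in IR-WT. None of the 10 tested endothelial genes was called, though Cdh5 (VE-cadherin) read -4.90, -6.50 and -6.43 in IR-KO and -2.97, -3.55 and -3.22 in IR-WT and was called with the block (adjusted p = 0.0207, against 0.137). None of 20 skeletal muscle, 17 neural and glial, 12 epithelial or 19 adipocyte and lipid genes was called without the block. With it the muscle acetylcholine receptor gene Chrna1 was higher (2.0, adjusted p = 0.00287) and the lipoprotein lipase gene Lpl lower (-2.26, adjusted p = 0.0350).

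Of the 23 named genes called lower, 12 are on one of the lists used here and 11 on none. Pirb, an inhibitory receptor for MHC class I, read -5.35, -7.64 and -6.69 in IR-KO and -2.59, -2.03 and -2.95 in IR-WT, a 16.4-fold difference (-4.04 ± 0.511, adjusted p = 0.0116). Its other probe gave -3.85 ± 0.615. Trem2, a lipid-sensing receptor that signals through Tyrobp, read -2.79, -2.26 and -2.74 in IR-KO and 0.10, 0.55 and -0.22 in IR-WT, with every array of both groups above background. That difference was -2.74 ± 0.434 (adjusted p = 0.0245), and -3.10 ± 0.467 on its other probe. Without IR-WT replicate 2 the adjusted p was 0.0775 for Pirb and 0.165 for Trem2.

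Several of these genes were not above background on any irradiated knockout array. Clec4d, a C-type lectin that recognises fungal and mycobacterial lipids, read -3.0, -3.51 and -3.67 in IR-WT and was above background on no IR-KO array, at least 5.22-fold lower (adjusted p = 0.00330). It was called in every fit that left out 1 irradiated array, with a highest adjusted p of 0.0319. Cd300lf, a lipid-binding receptor, was at least 4.43-fold lower, Arhgap25, a GTPase-activating protein of blood cells, at least 4.80-fold, and Myo1f, a myosin of immune cells, at least 3.89-fold. These calls were lost without IR-KO replicate 2 for Cd300lf and Myo1f (adjusted p = 0.108 and 0.261) and without IR-KO replicate 3 for Arhgap25 (0.108). Ms4a6d, Cd300c2 and Myo1g were above background on 1, 1 and 3 knockout arrays and differed by -3.76 ± 0.595, -3.15 ± 0.493 and -2.10 ± 0.361. Ms4a6d and Myo1g lost their calls without IR-KO replicate 2 (adjusted p = 0.162 and 0.243) and Cd300c2 without IR-WT replicate 2 (0.154). Lrfn2, a synaptic adhesion gene, was called lower although it was above background on 1 of 3 wild-type and no knockout arrays, so the size of its difference is not known. Its adjusted p was 0.0888 without IR-KO replicate 2.

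Promoter letters for the macrophage genes are shown because many of their promoters bind the myeloid transcription factor PU.1. Of the 27 features called lower, 17 matched a gene in the RefSeq promoter table (GRCm38.p6), and 3 of those 17 genes (17.6%), Arhgap25, C1qc and Pirb, held the letters GAGGAAGT on either strand within 250 bases before the start. Over the table, 2.79% of 27025 genes and 2.44% of 32851 windows did. The windows of C1qc (chr4:136892915-136893164, minus strand) and Pirb (chr7:3720383-3720632, minus strand) are printed 5′ to 3′ with the match in capitals. In C1qc it lies 195 to 188 bases before the start on the opposite strand, and in Pirb 120 to 113 bases before it. A match describes the letters and does not show binding.
C1qc: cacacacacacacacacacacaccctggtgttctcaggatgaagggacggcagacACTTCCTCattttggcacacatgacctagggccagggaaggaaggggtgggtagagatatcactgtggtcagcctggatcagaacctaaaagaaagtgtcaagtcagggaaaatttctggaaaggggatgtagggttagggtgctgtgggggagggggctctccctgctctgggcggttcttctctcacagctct
Pirb: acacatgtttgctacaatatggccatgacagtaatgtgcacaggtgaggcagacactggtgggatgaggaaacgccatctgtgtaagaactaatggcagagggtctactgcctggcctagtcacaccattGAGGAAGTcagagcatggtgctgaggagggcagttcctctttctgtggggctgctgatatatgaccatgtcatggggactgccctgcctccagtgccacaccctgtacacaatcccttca

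Acadm showed the largest measured difference of all features. It encodes medium-chain acyl-CoA dehydrogenase, which starts the mitochondrial oxidation of medium-chain fatty acids. The gene read -4.39, -5.88 and -7.51 in IR-KO and 2.30, 1.18 and 1.33 in IR-WT, and -5.63, -6.63 and -6.66 against 2.56, 1.78 and 1.88 without irradiation. All wild-type arrays were bright, and the knockout was above background on 1 of 3 irradiated arrays. The measured difference was -7.53 ± 0.634 (adjusted p = 0.000896 in limma), and -5.72 on the shared slide, and its size is limited by the background in the knockout. It was called in every fit that left out 1 irradiated array. The array carries 1 named probe for the gene.

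The other 19 tested genes of fatty acid oxidation did not share this difference. Apart from Acadm none was called, and they ran from -0.58 for the thioesterase Acot1 to 0.76 for the regulator Ppargc1a. Acadl and Acadvl, the long-chain and very-long-chain dehydrogenases, differed by -0.16 ± 0.206 and -0.09 ± 0.332, and Cpt1a, which admits fatty acids to the mitochondrion, by -0.14 ± 0.274. The median of the list was -0.16. Of 44 respiratory chain genes 39 were negative, with a median of -0.09, a range of -0.39 to 0.11 and no call.

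Ptgds, a prostaglandin D synthase of the brain membranes and of adipocytes, was called lower and read -2.26, -4.92 and -2.96 in IR-KO and 2.51, 1.20 and 2.27 in IR-WT with every array above background. The groups were 3.46 apart at their closest, and the difference was -5.37 ± 0.827 (41.5-fold, adjusted p = 0.0216, and 0.108 without IR-KO replicate 2).

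Imprinted genes, expressed from the copy of 1 parent, gave 2 calls, both lower in the knockout (0.146% of all features were). Dlk1, a Notch-related surface protein of embryonic cells that is expressed from the paternal copy, read 2.94, 2.91 and 3.14 in IR-KO and 4.84, 5.10 and 5.47 in IR-WT. The groups were tight and 1.70 apart, with a difference of -2.14 ± 0.247 (adjusted p = 0.00699, and 0.0559 without IR-WT replicate 2). Cdkn1c (p57), a cyclin-dependent kinase inhibitor expressed from the maternal copy, read 4.68, 4.25 and 4.65 in IR-KO and 6.12, 6.87 and 6.90 in IR-WT, a difference of -2.11 ± 0.337 (adjusted p = 0.0261, and 0.200 without IR-KO replicate 2). These were the 2 called of 21 tested imprinted genes, whose median was -0.33 and of which 14 were negative. Igf2, the imprinted fetal growth factor, read 7.55, 7.02 and 6.82 in IR-KO and 7.48, 7.36 and 7.59 in IR-WT and differed by -0.35 ± 0.330. Phlda2, a maternally expressed growth repressor, differed by 1.11 ± 0.276 (adjusted p = 0.199).

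Oas1a was the called gene of the interferon system. It encodes a 2′-5′ oligoadenylate synthetase, which senses double-stranded RNA and activates RNase L. The gene read 4.58, 4.81 and 4.77 in IR-KO and 2.51, 2.74 and 2.76 in IR-WT. Within each genotype the 3 arrays lay close together, and the groups were 1.82 apart. The difference was 2.05 ± 0.253 (4.14-fold, adjusted p = 0.0112 in limma, and 0.0759 without IR-WT replicate 2).

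Without irradiation Oas1a read 4.01, 4.35 and 4.03 in the knockout and -1.37, -0.52 and -0.84 in the wild type, a difference of 5.04. The nonirradiated wild-type arrays were thus the lowest of the 4 groups, and the genotype difference after irradiation minus that without it was -2.99 on the log2 scale. The interaction was called (± 0.357, adjusted p = 0.0412 in limma), but not once any 1 of the 6 irradiated arrays was left out, where its adjusted p ran from 0.0724 to 0.240. With the replicate block the same test also called Usp18 (-2.43 ± 0.234, adjusted p = 0.0184), Isg15 (-2.40 ± 0.263, 0.0362), Oasl2 (-2.31 ± 0.271, 0.0458) and Dhx58 (-1.90 ± 0.227, 0.0458). Isg15 is a ubiquitin-like modifier, Usp18 removes it from proteins, Oasl2 is a relative of Oas1a, and Dhx58 (LGP2) is a cytosolic RNA sensor. After irradiation these 4 differed between the genotypes by 0.59 ± 0.250, 0.20 ± 0.293, 0.39 ± 0.270 and 0.49 ± 0.384 for Usp18, Isg15, Oasl2 and Dhx58, and none was called.

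**Figure D4:**
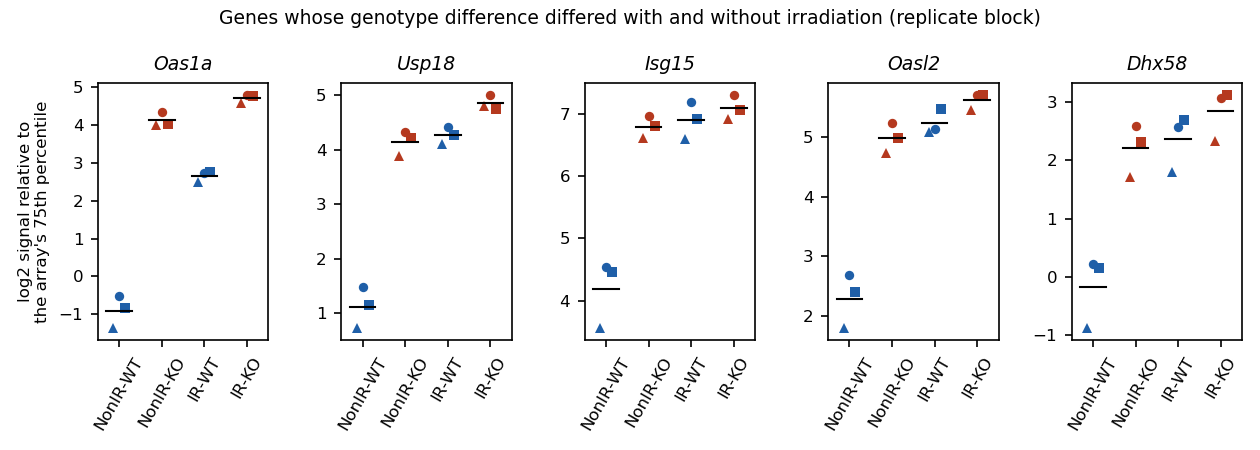
Log2 signal, with 0 at the 75th percentile of each array (vertical axes, each with its own range), of Oas1a, Usp18, Isg15, Oasl2 and Dhx58 on the 12 arrays, by group, with knockout in red, wild-type in blue, marker shape giving the replicate (triangle 1, circle 2, square 3) and a bar at the group mean. In all 5 genes the NonIR-WT arrays are the lowest, and only for Oas1a do the IR-KO and IR-WT means differ by more than 1, at 2.05.

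**Figure D5:**
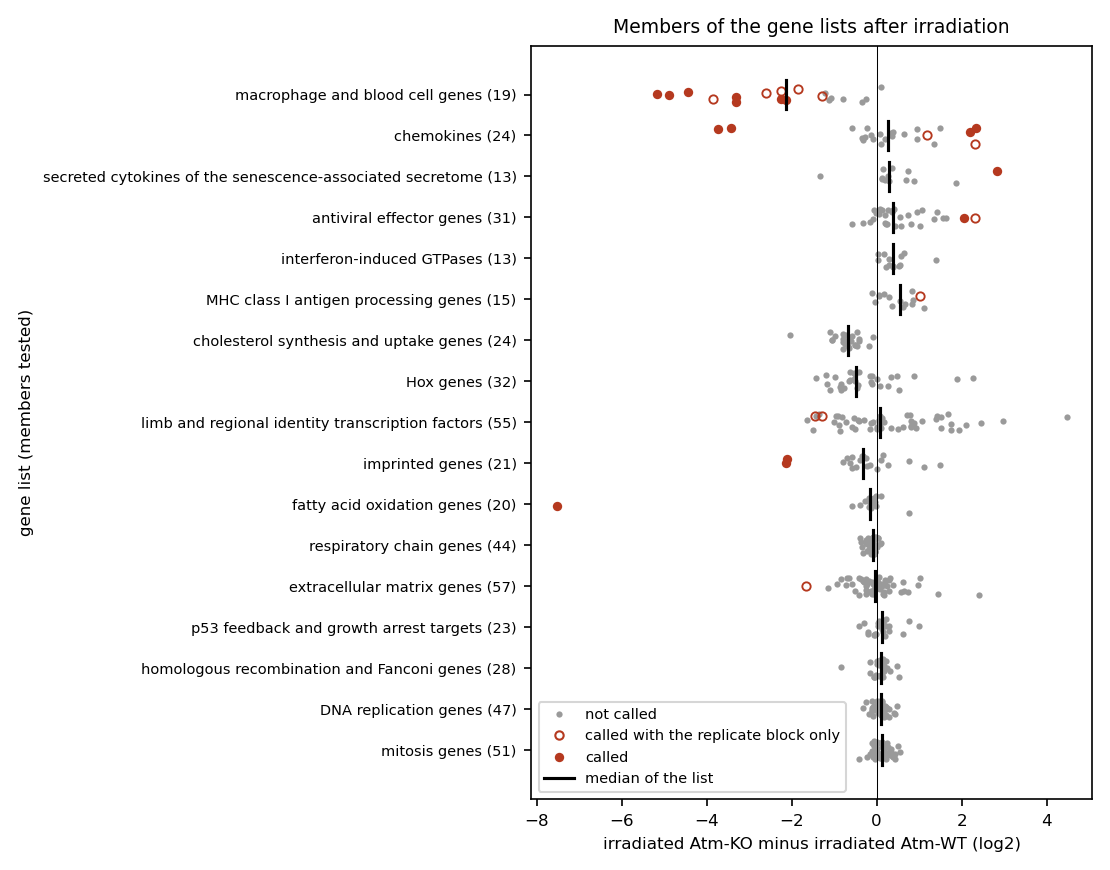
Irradiated Atm-KO minus irradiated Atm-WT difference (log2, horizontal axis) of every tested member of 17 gene lists, 1 point per gene, filled red where called and open where called with the replicate block only, with a bar at each list's median. The macrophage list has the lowest median, -2.14, all 24 cholesterol genes lie below 0, and the p53, repair, replication and mitosis lists sit close to 0 with medians of 0.10 to 0.12.

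Antiviral effectors are the proteins through which interferon blocks viral growth. Of 31 tested genes 1 was called higher (0.0597% of all features were) and 25 had a positive difference, with a median of 0.39, against 16 called and a median of 1.89 without irradiation. With the block 2 were called, Oas1a and Oas1g. Oas1g was bright enough to be tested in IR-KO only and so had to differ, and its call supports nothing further. For 30 of the 31 the difference was smaller after irradiation, while the interaction test called 1 of them, Oas1a, with the limits given above. The viral RNA-binding genes Ifit1 and Ifit3 differed by 0.36 ± 0.362 and 0.73 ± 0.384, the RNA synthetases Oas2 and Oasl1 by 1.08 ± 0.474 and 1.41 ± 0.333, and Rsad2 (viperin) by 0.96 ± 0.479. None of these 5 was called. Ifitm1, a membrane protein that blocks viral entry, had the lowest value of the list, -0.58 ± 0.394.

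The interferon-induced GTPases attack the vacuoles of intracellular pathogens. All 13 tested had a positive difference, from 0.03 to 1.40, with a median of 0.39 and no call; without irradiation 4 were called and the median was 1.28. Among 18 genes of interferon signalling the median was 0.01 and none was called. With the block the master regulator Irf7 (1.20 ± 0.354, adjusted p = 0.0471) and the cytokine gene Ifnb1 itself (1.88 ± 0.378, adjusted p = 0.0386) were higher and the myeloid factor Irf8 (-1.49 ± 0.439, adjusted p = 0.0195) lower. Ifnb1 was dim, at -3.42, -4.19 and -3.90 in IR-KO and -5.0, -5.72 and -6.42 in IR-WT, and above background on 3 and 1 arrays. It entered the test through IR-KO only, the group where it was higher. Of 13 cytosolic nucleic acid sensors none was called, and their median was 0.33 against 0.87 without irradiation.

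The promoter of Oas1a is shown because it holds the interferon-stimulated response element next to the start. The letters GAAA, any 2 bases and again GAAA were searched on both strands of the 250 bases before the start, and 2.98% of 32851 windows in the table held them. Oas1a (chr5:120907526-120907775, minus strand) holds 2 overlapping matches, 20 to 11 and 14 to 5 bases before the start. Oas1g (chr5:120887614-120887863, minus strand), a neighbouring copy of the gene, holds the same pair, 18 to 9 and 12 to 3 bases before its start. Of the 11 features called higher, 4 matched the promoter table and 1, Oas1a, held the element. The letters GGGA, any 2 bases and TTCC of a kappaB site, searched the same way, were in the windows of none of these 4 genes and in 1.21% of all windows. Both windows are printed 5′ to 3′ with the matches in capitals.
Oas1a: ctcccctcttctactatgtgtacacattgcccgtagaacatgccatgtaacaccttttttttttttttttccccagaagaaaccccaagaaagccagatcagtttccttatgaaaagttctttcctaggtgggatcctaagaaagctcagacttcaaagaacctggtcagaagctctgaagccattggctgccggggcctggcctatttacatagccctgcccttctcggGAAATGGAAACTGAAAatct
Oas1g: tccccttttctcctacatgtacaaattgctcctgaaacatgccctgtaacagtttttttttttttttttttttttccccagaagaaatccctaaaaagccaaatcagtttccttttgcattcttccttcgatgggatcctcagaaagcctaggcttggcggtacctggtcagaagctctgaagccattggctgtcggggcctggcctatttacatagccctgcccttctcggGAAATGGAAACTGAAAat

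Oas1g was far dimmer than Oas1a on its own probe and was above background in the knockout only. It read -4.54, -4.47 and -4.76 in IR-KO and -7.47, -7.61 and -5.66 in IR-WT. It was at least 2.19-fold higher in the knockout, with an adjusted p of 0.0664, and 0.05 after rounding with the block, where it was just called. The copies are close in sequence, so part of either signal could come from the other.

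MHC class I genes display peptides to T cells, and 1 of them, H2-Q8, was called higher in the knockout. H2-Q8, a nonclassical class I gene, read 1.31, 2.66 and 3.31 in IR-KO and 0.11, -0.33 and -0.15 in IR-WT, with replicate 1 the lowest knockout array. The groups did not overlap, and the difference was 2.55 ± 0.426 (5.85-fold, adjusted p = 0.0354, and 0.228 without IR-KO replicate 2). Of 15 tested genes of class I antigen processing, a list that does not hold H2-Q8, 13 were positive with a median of 0.55 and none was called. H2-D1 and H2-K1, the classical class I genes, differed by 1.11 ± 0.401 and 0.84 ± 0.330, and H2-Q7 by 1.03 ± 0.390, which was called with the block (adjusted p = 0.0425). On the shared slide the median of the list was -0.22, against -0.32 over all features. Class I genes are alike in sequence, so their probes may share signal.

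Chemokines, which draw leukocytes, moved in both directions. Of 24 tested, 2 were called higher and 2 lower, against 0.0597% and 0.146% of all features. With the block 4 and 2 were, against 0.304% and 0.456%. The 2 lower ones, Ccl3 and Ccl4, were bright enough to be tested in wild-type cells only. They had to differ, so their count describes the list and supports nothing further. Ccl5, which attracts T cells and monocytes and is induced by interferon and NF-kappaB, read 3.78, 4.34 and 4.41 in IR-KO and 1.87, 1.97 and 2.10 in IR-WT. The groups lay 1.68 apart, with a difference of 2.20 ± 0.303 (4.59-fold, adjusted p = 0.0137, and 0.0970 without IR-KO replicate 2). Without irradiation it differed by 2.67. Ccl20, the ligand of the receptor Ccr6, read -1.46, -2.23 and -3.25 in IR-KO and -4.37, -4.86 and -4.76 in IR-WT, a difference of 2.35 ± 0.414 (5.11-fold, adjusted p = 0.0475, and 0.256 without IR-WT replicate 2).

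Ccl3 and Ccl4, the macrophage inflammatory proteins made mainly by myeloid cells, were lower. Ccl3 read -5.29, -7.68 and -7.40 in IR-KO and -2.48, -3.07 and -3.59 in IR-WT, and Ccl4 read -4.46, -5.52 and -5.69 against -1.93, -1.30 and -2.20. Each was above background on 1 of 3 knockout and 3 of 3 wild-type arrays, and the differences were -3.74 ± 0.561 for Ccl3 (adjusted p = 0.0185, and 0.126 without IR-KO replicate 3) and -3.42 ± 0.488 for Ccl4 (adjusted p = 0.0139, and 0.1 without IR-WT replicate 2). They moved with the summed macrophage signal given above, and the part of those cells in the difference was not tested. The interferon-induced chemokine Cxcl9 was called with the block alone (2.31 ± 0.60, adjusted p = 0.222, and 0.00634 with it). Cxcl10 read 3.95, 2.76 and 2.39 in IR-KO and 2.08, 2.20 and 1.97 in IR-WT, a difference of 0.95 ± 0.418. The monocyte attractants Ccl2 and Ccl8 differed by 0.64 ± 0.479 and 0.08 ± 0.643, and the arrays overlapped for both.

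Tslp had the largest difference among the genes called higher. Thymic stromal lymphopoietin is an epithelial and stromal cytokine that primes dendritic cells towards allergic responses. It read -1.12, -1.31 and -1.58 in IR-KO and -4.03, -4.15 and -4.36 in IR-WT, with all 6 arrays above background and the groups 2.45 apart. The difference was 2.84 ± 0.302 (7.17-fold, adjusted p = 0.00386), and its adjusted p stayed at 0.0382 or below in every fit that left out 1 irradiated array. Of 13 tested cytokines of the senescence-associated secretome, the factors that ageing cells release, 12 were positive, with a median of 0.29, and Tslp was the 1 called. Spp1 (osteopontin) read 7.70, 8.01 and 7.04 in IR-KO and 5.65, 5.66 and 5.82 in IR-WT, which did not overlap, and differed by 1.87 ± 0.383 (adjusted p = 0.0948). Il6 overlapped, at -0.24, -1.67 and -2.24 against -2.71, -1.11 and -1.14. Tnf was above background on no knockout and 1 wild-type array.

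Of the 9 named genes called higher, 5 are on none of the lists, among them H2-Q8. Gpd1, the cytosolic glycerol-3-phosphate dehydrogenase that links glycolysis to lipid synthesis, read -1.80, -2.20 and -1.65 in IR-KO and -4.69, -4.80 and -4.64 in IR-WT, a 7.09-fold difference (2.83 ± 0.379, adjusted p = 0.0124). Its other probe was above background on no array. Ptpn22, a tyrosine phosphatase that restrains antigen receptor signalling, read -2.77, -2.64 and -2.69 against -5.24, -5.04 and -5.67, a 6.13-fold difference (adjusted p = 0.0413), and lost its call in each of the 6 fits that left out 1 array, with the highest adjusted p, 0.228, without IR-KO replicate 2. Prkg2, a cGMP-dependent kinase of growth plate cartilage, read -0.03, 0.14 and 0.03 against -1.66, -2.63 and -2.14 (2.19 ± 0.290, adjusted p = 0.0124), and 2.20 ± 0.524 on its other probe. Bglap, the bone matrix protein osteocalcin, read -0.85, -0.33 and -0.13 against -2.10, -1.94 and -2.18 (1.64 ± 0.268, adjusted p = 0.0298) and has close copies in the genome. The calls of Gpd1 and Prkg2 were lost without IR-WT replicate 2 and that of Bglap without IR-KO replicate 2, at adjusted p of 0.0775, 0.0775 and 0.207.

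Cholesterol genes all lay on the lower side in the knockout, without a call. The differences of all 24 tested genes of synthesis and uptake were negative; their median was -0.68, against -0.01 over all features, and the 2 groups of arrays did not overlap for 10 of them (41.7%, against 6.86% of all features). Mvd, an enzyme of the mevalonate pathway, read 1.14, 1.60 and 1.43 in IR-KO and 1.80, 2.94 and 2.58 in IR-WT, which did not overlap, and differed by -1.05 ± 0.363 (adjusted p = 0.542). Fdps, a later enzyme of the same pathway, differed by -0.97 ± 0.437. Without irradiation the median was -0.44. On the shared slide it was -0.89, where the median of all features was -0.32.

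Genes that record the body region of a fibroblast had positive and negative differences and no call. Of 32 tested Hox genes 23 were negative, with a median of -0.48, and the groups did not overlap for 11 (34.4%, against 6.86% of all features), but none was called. Hoxd13, which patterns the digits, read 0.63, 2.44 and 2.78 in IR-KO and 0.53, -0.65 and -0.82 in IR-WT (2.27 ± 0.677), while its cluster neighbours Hoxd3, Hoxd4 and Hoxd8 differed by -1.19 ± 0.335, -1.10 ± 0.317 and -1.16 ± 0.313. For Hoxd13 replicate 1 of the knockout lay 0.1 above its wild-type counterpart. Of 55 limb and regional transcription factors 17 did not overlap (30.9%, against the same 6.86%) and none was called. Alx1, a craniofacial factor, read -2.64, -0.48 and -0.34 in IR-KO and -3.59, -7.30 and -5.97 in IR-WT (4.47 ± 1.13, adjusted p = 0.209). Pitx1, which specifies the hind limb, read 1.77, 3.25 and 3.26 against 1.11, 1.30 and 1.35 (1.51 ± 0.370, adjusted p = 0.187). Irx2 and Lhx8 were called lower with the block, at -1.44 ± 0.306 (adjusted p = 0.0204) and -1.29 ± 0.417 (adjusted p = 0.0297). The body part from which the fibroblasts of each group were grown is not given in the labels.

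Growth factors gave no call either. Of 37 tested, the arrays did not overlap for 14 (37.8%, against 6.86% of all features) and none was called, with a median of 0.12. With the block the EGF receptor ligands Areg (1.48 ± 0.320, adjusted p = 0.0207) and Hbegf (1.07 ± 0.384, adjusted p = 0.0446) were higher and the X-linked lymphatic growth factor Vegfd (-1.24 ± 0.326, adjusted p = 0.0386) lower. The BMP antagonist Grem1 gave the highest value of the list, 1.53 ± 0.465. Of 57 extracellular matrix genes none was called, with a median of -0.04. Col1a1 and Col3a1, the major fibrillar collagens, differed by -0.14 ± 0.276 and -0.08 ± 0.283. With the block Tnxb was lower (-1.66 ± 0.675, adjusted p = 0.0217).

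Genes of the damage response, on which Atm acts mainly through protein phosphorylation, were close between the irradiated genotypes. Cdkn1a (p21), the cell cycle inhibitor that p53 induces, read 4.88, 5.86 and 5.48 in IR-KO and 4.95, 5.70 and 5.42 in IR-WT. The arrays overlapped, and the difference was 0.05 ± 0.313. Of 23 p53 feedback and growth arrest targets none was called, with a median of 0.12, though the arrays did not overlap for 4 (17.4%, against 6.86% of all features). Mdm2, the ligase that degrades p53, differed by 0.28 ± 0.313, Ccng1 by -0.03 ± 0.306 and Trp53 itself by 0.10 ± 0.297. Of 15 p53-induced apoptosis genes none was called, and Bax differed by 0.00 ± 0.298. Epha2, an ephrin receptor, gave the highest value of the arrest list, 0.99 ± 0.345 (adjusted p = 0.547). The smallest difference called among all features was 1.64, for Bglap. With 3 arrays a group, differences smaller than that could therefore go uncalled in these genes. Nor is that value a bound, as larger differences also went uncalled, that of Atm at -2.52 among them.

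Proliferation and repair genes were likewise near each other. Of 51 mitosis genes and 47 replication genes none was called, with medians of 0.12 and 0.11 and ranges of -0.42 to 0.54 and -0.31 to 0.49. Mki67, the proliferation antigen, read 1.17, -0.23 and 0.08 in IR-KO and 1.31, -0.74 and -1.06 in IR-WT, with replicate 1 the highest in both groups. Mcm2, a subunit of the replicative helicase, differed by 0.19 ± 0.229. Of 28 homologous recombination and Fanconi genes and 15 end-joining genes none was called, with medians of 0.10 and 0.09. Rad51b gave the lowest value of the former, at -1.94, -2.26 and -2.42 in IR-KO and -1.33, -1.51 and -1.30 in IR-WT (-0.83 ± 0.272, adjusted p = 0.463). Among 25 damage signalling genes Atm was the lowest, and its relative Atr differed by 0.45 ± 0.517. The senescence marker Cdkn2a differed by -0.11 ± 0.557 and the lamina gene Lmnb1 by -0.26 ± 0.238. Of 22 tested genes beside Atm on chromosome 9 none was called, with a median of 0.00, and Npat, which shares its promoter region with Atm, differed by 0.38 ± 0.455.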

How the data were processed

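Total RNA of 12 fibroblast samples was labelled with Cy3 and hybridised, per the labels' protocols. The deposited scanner files give background-subtracted spot intensity and flags; per the file headers they came from Feature Extraction 10.7.1.1 on design 014868, annotated to mm9, while the submitters' processing notes name version 11.0. The authors' deposited log2 matrix correlated with the scanner values at 0.9975 to 0.9997 and served as an alternative; its probes are centred, and how the authors scaled the arrays before that is not stated. Log2 intensity minus the array's 75th percentile was averaged over the spots of a probe. Outlier spots were left out. Of 41174 probes, 25097 were named through RefSeq accessions (GRCm38.p6), giving 17305 genes, each read on its brightest probe. Limma 3.58.1 in R 4.3.3 fitted 4 group means to the 12 arrays (8 residual degrees of freedom, 4.13 prior), with Benjamini-Hochberg adjustment over 18438 features and a threshold of 0.05, after a check on simulated data. Bounds ("at least") set the bright group's mean against the lowest signal well above background.

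Same-numbered IR-KO and IR-WT arrays deviated together (correlations 0.628, 0.616 and 0.218), so the numbers were taken as pairs on the data alone, since no label states a shared source; IR-KO replicate 3 correlated better with IR-WT replicate 2 (0.387). The block left 6 residual degrees of freedom. Named genes are a preset list, the 15 highest and 15 lowest called genes with non-overlapping arrays, up to 4 called members of each list and each list's extremes; other genes were chosen after their values were seen. The members and lists were chosen with earlier results of these data known. Normexp used median spot signal, offset 50. The number of arrays limits the precision. Values of some genes are not reported here.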

Additional observations from a re-analysis of the deposited data

Results flagged for a closer look

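The genotype difference of Oas1a differed between irradiated and nonirradiated cells in limma's interaction test: the difference after irradiation was 2.05, that without irradiation 5.04, and the interaction was -2.99 (log2, adjusted p = 0.0412). All 3 wild-type arrays were higher with irradiation than any without it, at 2.51 to 2.76 against -1.37 to -0.52, and the knockout arrays were at 4.58 to 4.81 against 4.01 to 4.35. The interaction kept its sign under every alternative run, with an adjusted p from 0.0108 with the replicate block to 0.240 without IR-WT replicate 3.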

How the results depend on the processing

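The direction of the 32 named genes called did not change under any alternative run. As their arrays do not overlap, it could not change where arrays were only left out. The number called did change. From 38, it was 23 in a fit of the 6 irradiated arrays alone, 20 with no filter on dim probes, 16 among features well above background on all 6 irradiated arrays, 3 with slide as a fixed block, 140 with the replicate block, and 3 to 104 with 1 irradiated array left out. Without the replicate 1 samples, a choice made after seeing the data, it was 1044, and 1239 with the block. For macrophage genes called lower (7) the same settings gave 4, 3, 2 (of 10 tested), 1, 12, 0 to 7, 13 and 14. For the interaction (1) normexp and quantile scaling gave 2 each, the block 5, and median centring, no filter, slide as a fixed block, every leave-one-out fit (0 to 0) and the omission of replicate 1, with and without the block, 0. Atm differed by -1.07 on the shared slide, -0.39 with normexp (adjusted p = 0.887), -1.52 with slide as a fixed block and -2.96 to -1.95 with 1 array left out, and was called with the block (-2.52, adjusted p = 0.00287), also without replicate 1 (-2.39, 0.0196).

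Of 26 uncalled genes refitted under each alternative, 16 changed sign somewhere. With slide as a fixed block Cdkn1a was at -0.31, Ccng1 0.42, Bax -0.42, Trp53 -0.14, Isg15 -0.13, Ccl8 -0.21, Ccnb1 1.27, Lmnb1 0.18 and Igf2 0.26; with slide as a random block Cdkn1a -0.02, Ccng1 0.06, Bax -0.09 and Ccnb1 0.23. Normexp gave Ccng1 0.02 and Col3a1 0.03, quantile scaling Col3a1 0.04, median centring Bax -0.02, and probe means Trp53 -0.04 and Ccnb1 0.34. Without replicate 1 Ccl8 was at -0.43 and Il6 at -0.83. With 1 array left out Bax ran from -0.19 to 0.25, Ccl8 -0.33 to 0.48, Ccnb1 -0.43 to 0.32, Ccng1 -0.19 to 0.10, Cdkn1a -0.17 to 0.32, Cdkn2a -0.79 to 0.41, Col1a1 -0.40 to 0.02, Col3a1 -0.33 to 0.12, Il6 -0.30 to 0.70, Mdm2 -0.09 to 0.51, Mmp3 -0.64 to 0.24, Npat -0.08 to 0.75 and Trp53 -0.15 to 0.31. Except where the alternative tests fewer features or arrays, the cause was not tested. Signals near background, as for most macrophage genes in the knockout, limit the size of their differences.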
